A study of Mus musculus with 2 samples.

Results

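The 9 genes described here include the ether lipid enzyme Agmo and endothelial nitric oxide synthase (Nos3). Gch1, Pts, Spr and Qdpr make or recycle tetrahydrobiopterin, and Gchfr regulates Gch1. The last are the dimethylarginine hydrolase Ddah1 and its paralog Ddah2. All 9 were found by symbol among the 32285 genes of both count matrices. They were measured by single-cell RNA sequencing in lung endothelial cells (ECs) of wild-type C57BL/6 mice, with 1 library per group. The control mice received PBS through the tail vein, and the B16-F10 mice received 400000 cells of that mouse melanoma line, dyed with CellTracker Green CMFDA, in 100 µl. Lungs of both groups were taken after 6 h, ECs were sorted as Pecam1-positive and Ptprc-negative, and from the injected lungs the dyed melanoma cells were added back. The labels give 2 mice per treatment, the methods of the study give a pool of another size, and cells of 1 group were pooled before the library was made. There was therefore no replicate, no test was possible, and every interval below is a 95% counting interval that leaves out the spread between mice. The genes were chosen by pathway around Agmo, which was itself selected on its lower level in the B16-F10 library, so its ratio is given as a description.

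Tetrahydrobiopterin is a small cofactor made from GTP. GCH1 carries out the first and rate-limiting step, PTS and SPR complete it, QDPR returns the oxidised cofactor to use, and GCHFR binds GCH1 and mediates its feedback inhibition. The cofactor is needed by the nitric oxide synthases, which make nitric oxide from arginine, and by AGMO, a membrane enzyme that cleaves alkylglycerol ether lipids. Endothelial nitric oxide relaxes vessels and keeps platelets and leukocytes from adhering. DDAH1 degrades asymmetric dimethylarginine, a natural inhibitor of nitric oxide synthases, and DDAH2 is its paralog.

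Agmo lies on chromosome 12 (37241641 to 37582202, plus strand, GRCm38) and spans 340562 bases, of which 1.88% are exonic. Gch1 lies on chromosome 14 (47153895 to 47189413, minus strand), Nos3 on chromosome 5 (24364810 to 24384474, plus strand), Ddah1 on chromosome 3 (145758675 to 145894277, plus strand) and Ddah2 on chromosome 17 (35059035 to 35062095, plus strand). Ddah1 spans 135603 bases and Ddah2 spans 3061. The other members are Gchfr (chromosome 2, 119167773 to 119172390, plus strand), Pts (chromosome 9, 50521617 to 50528724, minus strand), Spr (chromosome 6, 85130176 to 85137766, minus strand) and Qdpr (chromosome 5, 45434021 to 45450236, minus strand). All 9 are protein-coding genes. Agmo, Qdpr and Nos3 each overlap an annotated antisense gene, and whether the counting used strand is not stated in the sources used here. The antisense gene within Agmo, Gm34408, had 11 unique molecular identifiers (UMIs) in control and 0 in B16-F10 general capillary cells.

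The promoters of Agmo, Gch1 and Ddah2 are shown because Agmo had the lowest gCap-like ratio of the group and the lowest G and C content among the windows, while Gch1 and Ddah2 were both higher in B16-F10 gCap-like cells. Each run is the 250 bases before the RefSeq start (GRCm38.p6), written 5′ to 3′ on the strand of the gene, with motif matches in capitals.
Agmo, chr12:37241389-37241638, plus strand: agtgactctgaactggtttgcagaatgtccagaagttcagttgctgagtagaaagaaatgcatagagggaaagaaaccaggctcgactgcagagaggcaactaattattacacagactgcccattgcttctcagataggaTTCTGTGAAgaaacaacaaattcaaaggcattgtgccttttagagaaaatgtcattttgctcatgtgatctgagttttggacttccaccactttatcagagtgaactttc
Gch1, chr14:47189414-47189663, minus strand: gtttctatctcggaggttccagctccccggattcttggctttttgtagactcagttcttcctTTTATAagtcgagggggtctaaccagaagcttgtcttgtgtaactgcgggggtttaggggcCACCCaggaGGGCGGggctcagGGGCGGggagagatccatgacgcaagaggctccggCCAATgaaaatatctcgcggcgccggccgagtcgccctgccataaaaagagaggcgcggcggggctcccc
Ddah2, chr17:35058785-35059034, plus strand: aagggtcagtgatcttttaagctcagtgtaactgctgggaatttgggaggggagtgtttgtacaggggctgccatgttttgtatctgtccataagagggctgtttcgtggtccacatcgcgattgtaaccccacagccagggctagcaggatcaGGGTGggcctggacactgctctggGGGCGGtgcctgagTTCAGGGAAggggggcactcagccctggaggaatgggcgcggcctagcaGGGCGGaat
RefSeq windows were found for 8 of the 9 members, Nos3 being the other. Motifs were searched on both strands and may overlap. The Agmo window held 40.8% G and C, below the 58% to 66.4% of the other 7 members and the median of 52.4% over all 32851 windows of this length. Its only match was a STAT-type palindrome, TTCNNNGAA, 110 bases before the start, which 7.02% of all windows hold. Ddah2 held the same palindrome 58 bases before its start, 2 GC boxes (GGGCGG, in 32.7% of windows) and 1 KLF-type box (CACCC, in 52.0%). Gch1 held 2 GC boxes, 1 KLF-type box, a CCAAT box (CCAAT, in 33.8%) and a TATA-type match (TATAAA, in 12.4%) 188 bases before its start. None of the 8 windows matched the AP-1 site (TGANTCA, in 6.75%), the cAMP response element (TGACGTCA, in 1.55%), an interferon response element (in 2.98%) or an ETS site (CCGGAAGT, in 2.88%). The Ddah1 window, not shown, had no match to any motif searched, and Ddah1 was also higher in B16-F10 gCap-like cells. A match describes letters in this window only.

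The deposited matrices held 85794655 UMIs in control and 104978816 in B16-F10. A UMI marks 1 captured RNA molecule, and levels are given as CPM, the UMIs of a gene scaled to a total of 1000000 UMIs over the cells summed. Within 1000 to 5000 genes and under 20% mitochondrial UMIs there were 8394 control and 8321 B16-F10 cells, which shared 19 barcodes. Predicted doublets were removed, which left 7830 and 7767. Clusters were named from fixed markers as general capillary (gCap-like, 4713 control and 4321 B16-F10 cells), aerocyte capillary (aCap-like, 1451 and 978), artery-like (184 and 147), vein-like (312 and 297) and lymphatic (LEC-like, 58 and 47). General capillaries carry progenitor and immune functions and aerocytes line the air spaces for gas exchange. All 8 EC markers were detected in gCap-like cells of both libraries, with a summed level of 9538 CPM in control and 9403 CPM in B16-F10. The melanoma-like cluster held 77 cells, all from B16-F10. None of the 9 members entered the clustering. The median gCap-like cell held 7401 UMIs in control and 8563 in B16-F10, so shares of cells are also given after each cell was thinned to 2000 UMIs.

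In gCap-like cells, Agmo stood at 6.58 CPM (5.77 to 7.47; 237 UMIs) in control and at 0.415 CPM (0.237 to 0.674; 16 UMIs) in B16-F10. The level was 15.9-fold lower in the B16-F10 library, a log2 ratio of −3.99 (−4.82 to −3.26), and the intervals did not overlap. No other of the 13193 genes with at least 50 UMIs over both gCap-like sums had a lower ratio. Agmo was found in 122 of 4713 control cells (2.59%, 2.15 to 3.08) and in 12 of 4321 B16-F10 cells (0.278%, 0.144 to 0.485). After thinning these shares were 0.984% (0.721 to 1.31) and 0.0464% (0.00562 to 0.168).

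The Agmo UMIs were concentrated in few cells, so the counting interval of the level is too narrow and the shares of cells are the safer measure. In control, 77 of the 122 positive gCap-like cells held 1 UMI, while 26 cells with 3 or more held 122 of the 237 UMIs, up to 11 in 1 cell. Spread evenly by cell depth, 237 UMIs would have reached about 230 cells. In B16-F10, 9 of the 12 positive cells held 1 UMI and the highest held 3.

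**Figure D1:**
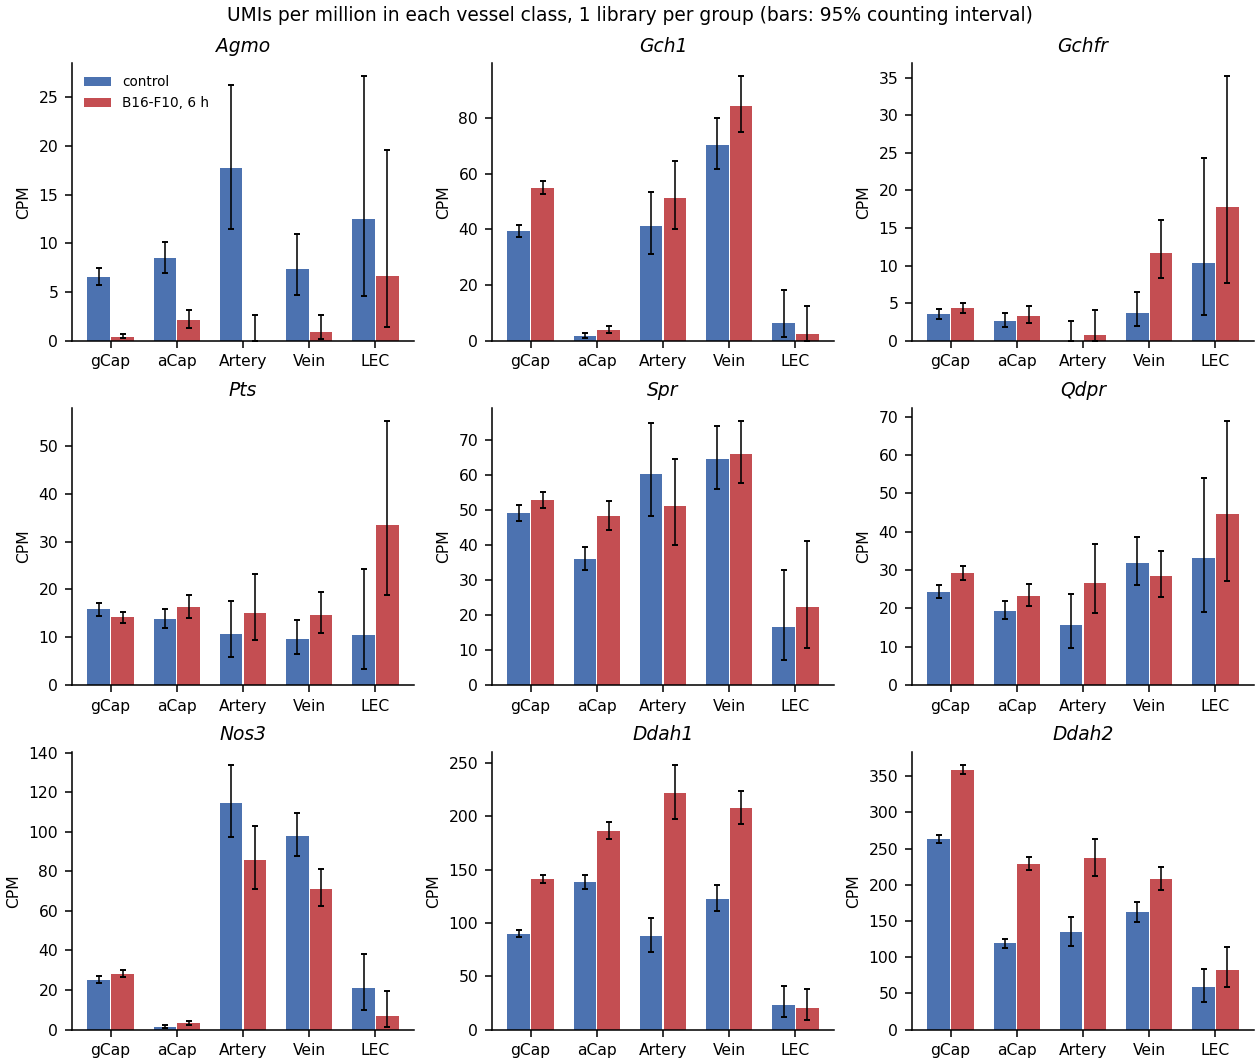
Levels of the 9 genes in 5 vessel classes, in CPM (y axis, linear from 0), for the control library (blue) and the B16-F10 library (red), with 95% counting intervals. Agmo is lower in B16-F10 in every class, with overlapping intervals in LEC-like cells, Gch1 and Nos3 are near 0 in aCap-like cells, and Ddah1 and Ddah2 stand higher in B16-F10 in the 4 blood vessel classes.

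The lower level of Agmo was seen in the other blood vessel classes too. In aCap-like cells it was 8.46 CPM (111 UMIs) in control and 2.11 CPM (23 UMIs) in B16-F10, a log2 ratio of −2.01 (−2.72 to −1.35). In artery-like cells there were 25 UMIs in control, or 17.8 CPM (11.5 to 26.2), from 9 of 184 cells, and 0 in B16-F10. The level was 8.21-fold lower when 3 counts stand for the 0 of that library. The interval of the log2 ratio had its upper end at −2.63. None of the 147 B16-F10 cells had a UMI, which allows a share of cells with a UMI of up to 2.04% and sets no limit on cells that express the gene. The control share was 4.89% (2.26 to 9.08), and the exact B16-F10 interval, from 0% to 2.48%, overlapped it. Vein-like cells had 24 UMIs (7.38 CPM) and 3 UMIs (0.902 CPM), a log2 ratio of −3.03 (−5.41 to −1.31) from few counts. In LEC-like cells the 6 and 3 UMIs gave intervals that overlapped. Within control, the level followed the order artery, LEC, aCap, vein and gCap, and no 2 neighbours in that order had separate intervals.

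The clusters within these classes showed the same direction. Agmo was lower in B16-F10 in all 6 gCap-like clusters, with log2 ratios from −5.06 to −2.06, and in 5 of them the interval lay below 0. The exception was cluster 4, led by Ntrk2, where 10 and 2 UMIs were counted. Counts were few elsewhere too, with 3 UMIs in each library in cluster 6 and 1 B16-F10 UMI each in clusters 2 and 10. As said above, counting intervals are too narrow for Agmo. Both aCap-like clusters were lower, from 6.09 to 1.06 CPM in cluster 3 and from 14.0 to 5.83 CPM in cluster 7, led by Tmeff2. Cluster 6, led by Lalba, held 110 control and 879 B16-F10 cells, while clusters 2 and 10 were mostly control, so the class was not composed alike in the 2 libraries.

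**Figure D2:**
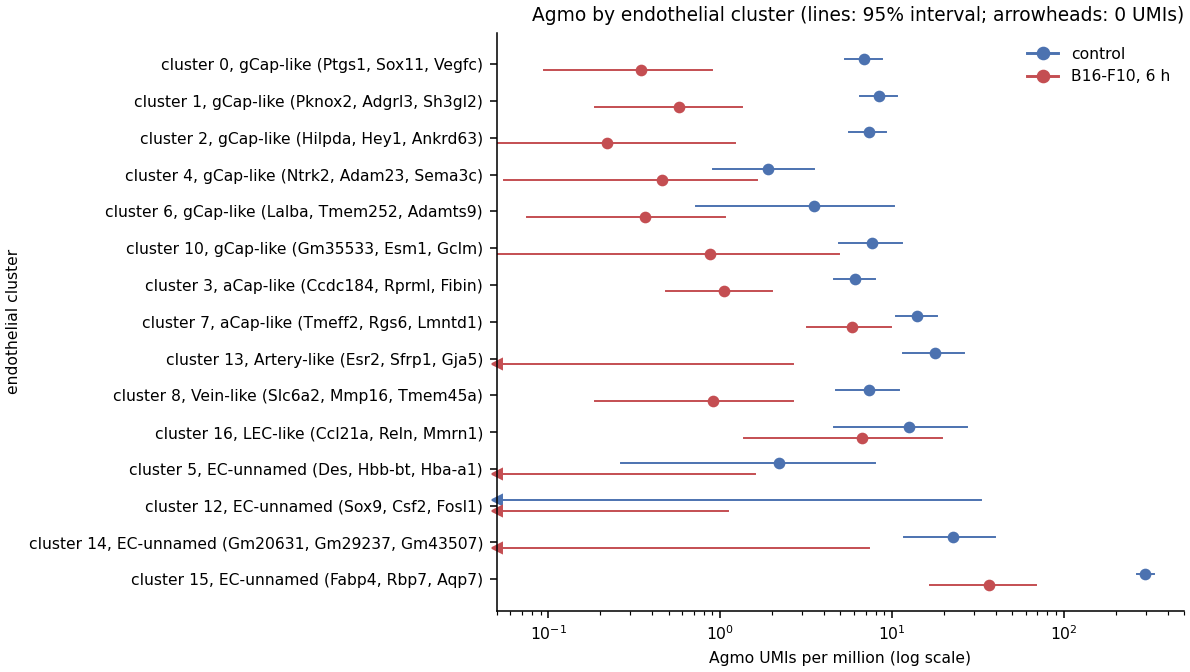
Agmo in each of the 15 endothelial clusters, in CPM on a log axis, for control (blue) and B16-F10 (red), with 95% counting intervals and arrowheads for 0 UMIs. The control point lies to the right of the B16-F10 point in 14 clusters, in cluster 12 neither library had a UMI, and cluster 15 stands far to the right.

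A small set of ECs carried a large part of the Agmo molecules. Cluster 15, an unnamed EC cluster led by Fabp4, Rbp7 and Aqp7, genes of fatty acid and glycerol handling, held 174 control and 36 B16-F10 cells. It made up 2.36% of control ECs and held 294 of their 711 Agmo UMIs (41.4%). Its level was 297 CPM (264 to 334) in control and 36.4 CPM (16.7 to 69.1) in B16-F10. Agmo was found in 68 of the 174 control cells and in 3 of the 36 B16-F10 cells. The fewer cells of that cluster did not enter the gCap-like values. Among gCap-like cells lacking Rbp7 and Aqp7 UMIs, an alternative chosen after the data were seen, Agmo had 235 and 16 UMIs and a log2 ratio of −3.99.

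Other values moved with the library and their part in the Agmo ratio was not tested. Longer genes had lower median ratios in gCap-like and aCap-like cells. For the 444 measured genes of 200000 to 400000 bases the gCap-like ratios had a median of −0.24 and a 5th percentile of −0.97 (log2). None of them could lie below Agmo, which had the lowest ratio of all 13193 genes measured there. In aCap-like cells 1 of 362 genes of that length lay below Agmo, which was at rank 13 from the lowest of 11110. Summed macrophage and monocyte markers were at 16 CPM in control and 30.5 CPM in B16-F10 gCap-like cells, with 7 and 8 of 8 markers detected and C1qa at 0 in control. Mural markers stood at 22.6 and 38.9 CPM, fibroblast markers at 7.47 and 14.1, pigment cell markers at 26.4 and 54.0 and epithelial markers at 197 and 172. Neutrophil markers stood at 2.83 and 7.94 CPM, artery markers at 841 and 505 and aCap markers at 483 and 630. These sums bear on every gCap-like ratio below, and their part in those was not tested either. Free RNA, estimated from barcodes with 1 to 100 UMIs, would account for 0.126 of the 6.58 CPM in control and for 0.161 of the 0.415 CPM in B16-F10. Its share was set from epithelial genes in control (1.43%) and from pigment genes in B16-F10 (3.95%, against 2.11% from epithelial genes). After subtraction the log2 ratio was −4.67, and it was −4.29 with epithelial genes in both libraries, an alternative added after the data were seen.

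Gch1 went the other way. In gCap-like cells its level was 39.3 CPM (37.3 to 41.4; 1415 UMIs) in control and 55.0 CPM (52.7 to 57.4; 2121 UMIs) in B16-F10. The intervals were separate, and the log2 ratio of 0.49 (0.39 to 0.58) was under the 1.5-fold line used to call a gene. It passed that line, at 0.66, in cells with no UMI of other cell types' markers. Gch1 was found in 22.8% of control and 32.5% of B16-F10 gCap-like cells, and in 7.10% (6.38 to 7.88) and 10.3% (9.37 to 11.2) after thinning. The Lalba-led cluster 6 reached 82.1 CPM in B16-F10 against 41.8 CPM in control, and without it the class ratio was 0.28. The other 5 gCap-like clusters had log2 ratios from 0.02 to 0.32, of which 2 had intervals above 0.

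Across vessels, Gch1 was uneven. Control vein-like cells had the highest level, 70.4 CPM (61.6 to 80.1), separate from artery-like (41.2 CPM) and gCap-like cells (39.3 CPM), which overlapped each other. The aCap-like level was 1.75 CPM (1.11 to 2.63), from 23 UMIs in 1451 cells, and overlapped that of LEC-like cells (6.24 CPM from 3 UMIs). It was 3.85 CPM (2.77 to 5.20) in B16-F10. The aCap-like log2 ratio of 1.13 (0.37 to 1.93) rested on 23 and 42 UMIs, and free RNA would supply 0.272 and 1.43 CPM of those levels. Taking it off gave a ratio of 0.71, and one of 1.08 with the share set from epithelial genes in both libraries. In vein-like cells the B16-F10 level was 84.5 CPM, a log2 ratio of 0.26 (0.01 to 0.52), which was 0.99 with classes set from marker UMIs. In artery-like cells it was 51.2 CPM, with an interval that included 0.

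Nos3, the synthase that uses the cofactor, was also low in aCap-like cells. Its B16-F10 ratios went the other way from those of Gch1 in artery-like and vein-like cells. In control, artery-like cells had 114 CPM (97.5 to 134) and vein-like cells 98.1 CPM (87.6 to 109), which overlapped. gCap-like cells followed at 25.2 CPM (23.5 to 26.8), and aCap-like cells had 1.37 CPM (0.813 to 2.17), from 18 UMIs. Over the 10 sums of 5 classes and 2 libraries, the Pearson r of log2(CPM + 1) between Gch1 and Nos3 was 0.90. That placed Nos3 at rank 143 of 13192 genes and describes points that share libraries. LEC-like cells had 10 Nos3 UMIs (20.8 CPM, 9.97 to 38.2), which overlapped gCap-like cells and was separate from aCap-like cells.

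In B16-F10, the Nos3 level was lower in artery-like and vein-like cells and higher in gCap-like and aCap-like cells. It stood at 85.8 CPM (71.1 to 103) in artery-like cells, a log2 ratio of −0.42 (−0.77 to −0.06). In vein-like cells it stood at 71.3 CPM (62.5 to 80.9), a ratio of −0.46 (−0.71 to −0.21). Shares of artery-like cells with a Nos3 UMI were 41.8% (34.6 to 49.3) in control and 32.7% (25.2 to 40.9) in B16-F10, which overlapped. Those of vein-like cells, 47.4% (41.8 to 53.1) and 41.1% (35.4 to 46.9), overlapped too. The highest control cell of each of these classes held 18 Nos3 UMIs. In gCap-like cells the level was 28.1 CPM (26.5 to 29.9), a ratio of 0.16 (0.03 to 0.29). Thinned shares of Nos3-positive gCap-like cells were 5.03% (4.42 to 5.69) and 5.06% (4.42 to 5.76), which overlapped. In aCap-like cells 18 and 34 UMIs gave a ratio of 1.18 (0.32 to 2.09), at levels where free RNA would supply 0.226 and 0.902 CPM. The artery-like ratio was 0.03 when vessel classes were set from marker UMIs alone and −0.05 with no upper limit of genes per cell. Summed artery markers in artery-like cells stood at 6312 CPM in control and 4297 CPM in B16-F10, fibroblast markers at 52.6 and 16.6 and platelet markers at 4.98 and 32.5. In vein-like cells fibroblast markers stood at 40.6 and 18.9 CPM. The part of these in the Nos3 ratios was not tested. The gCap-like ratio was −0.15 when only cells without a UMI of other cell types' markers were kept.

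Levels of Ddah1 and its paralog Ddah2 were higher in B16-F10 in the blood vessel classes. Ddah1, which appears in the study's own lists of changed genes for several vessel types and so is not an independent choice, stood at 89.9 CPM (86.8 to 93.1; 3239 UMIs) in control gCap-like cells. In B16-F10 it stood at 141 CPM (137 to 145; 5445 UMIs), a log2 ratio of 0.65 (0.59 to 0.71). The ratio was under the 1.5-fold line with at least 500 genes per cell (0.55), at resolution 1.6 (0.49) and without cluster 6 (0.51). All 6 gCap-like clusters were higher beyond their intervals, by 0.36 to 0.82 on the log2 scale. Artery-like cells had the largest ratio among the vessel classes, 1.34 (1.03 to 1.65) on the log2 scale. Their level was 87.4 CPM (72.7 to 104) in control and 221 CPM (197 to 248) in B16-F10. That ratio was 0.85 with classes set from marker UMIs alone and 1.73 in cells with no UMI of other cell types' markers. Vein-like cells went from 123 to 207 CPM (0.76, 0.58 to 0.94; 0.29 after thinning) and aCap-like cells from 138 to 187 CPM (0.43, 0.34 to 0.52). LEC-like cells, with 11 and 9 UMIs, had overlapping intervals. The order of the classes differed between libraries: aCap-like and vein-like cells were highest in control, artery-like and vein-like cells in B16-F10, each pair with overlapping intervals, and the B16-F10 aCap-like interval overlapped that of vein-like cells.

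Ddah1 is long, and its gCap-like ratio was above the median of genes of its length. In gCap-like cells the 1108 genes of 100000 to 200000 bases had a median of −0.21 (log2), and 55 of them, Ddah1 included, lay at or above its ratio. The thinned share of Ddah1-positive gCap-like cells was 14.4% (13.4 to 15.5) in control and 22.4% (21.2 to 23.7) in B16-F10.

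Ddah2 was the member with the most UMIs in gCap-like cells, 9480 in control and 13844 in B16-F10. Its level was 263 CPM (258 to 269) in control and 359 CPM (353 to 365) in B16-F10, which is 0.45 (0.41 to 0.49) on the log2 scale, and all 6 clusters were higher beyond their intervals. The aCap-like ratio was 0.94 (0.85 to 1.04), from 119 to 229 CPM, and within that class cluster 7 went from 48.3 to 156 CPM. Artery-like cells had 134 and 237 CPM (0.82, 0.55 to 1.08) and vein-like cells 162 and 208 CPM (0.36, 0.19 to 0.52). One EC cluster went the other way: cluster 12, led by Sox9 and Csf2, had 286 CPM in its 13 control cells and 125 CPM in its 338 B16-F10 cells, a ratio of −1.20 (−1.72 to −0.63). Genes of up to 10000 bases, as Ddah2 is, had a median ratio of 0.25 in aCap-like cells, with a 95th percentile of 0.87. Their 95th percentiles were 0.96 in gCap-like and artery-like cells and 0.75 in vein-like cells, each above the Ddah2 ratio there. In artery-like cells the Ddah2 ratio was −0.15 when classes were set from marker UMIs alone. The vein-like ratio was −0.01 after thinning and −0.05 in cells with no UMI of other cell types' markers, so the vein-like difference was lost in both.

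**Figure D3:**
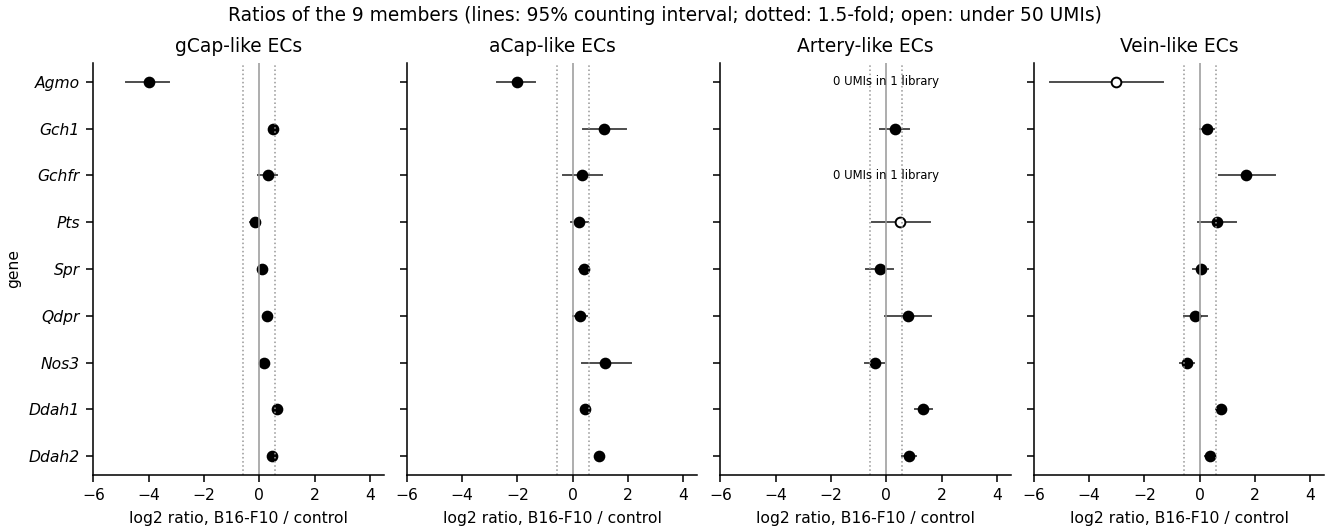
Log2 ratios of B16-F10 over control (x axis) for the 9 genes in 4 blood vessel classes, with 95% counting intervals, dotted lines at 1.5-fold and open points for genes under 50 UMIs. Agmo lies left of the lower line in the 3 classes where a ratio exists, and Ddah1 and Ddah2 lie right of 0 in all 4.

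The other enzymes of cofactor synthesis and recycling stayed under the 1.5-fold line in gCap-like cells. Pts stood at 15.8 and 14.1 CPM (log2 ratio −0.16, −0.33 to 0.01), Spr at 49.1 and 52.9 CPM (0.11, 0.01 to 0.20) and Qdpr at 24.3 and 29.2 CPM (0.26, 0.13 to 0.39). Unlike Gch1, these genes were also well detected in aCap-like cells, with 13.8, 36.1 and 19.4 CPM in control. Spr was higher in B16-F10 aCap-like cells, at 48.3 CPM (0.42, 0.24 to 0.60), and its ratio was 0.95 after thinning. Before thinning, genes of up to 10000 bases, as Spr is, had a median ratio of 0.25 there, with a 95th percentile of 0.87. Qdpr there had a ratio of 0.26 (0.01 to 0.52), which was 0.91 in cells with no UMI of other cell types' markers. In aCap-like cluster 7 both were higher, Spr by 1.26 (0.81 to 1.72) and Qdpr by 1.12 (0.52 to 1.72) on the log2 scale. In artery-like cells Qdpr had 22 and 37 UMIs (0.77, −0.03 to 1.6), and in vein-like cells Pts had 31 and 49 (0.63, −0.05 to 1.33), both with intervals that included 0. Pts had 5 and 15 UMIs in LEC-like cells.

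Gchfr was sparse in ECs, with 126 and 167 UMIs in gCap-like cells (3.50 and 4.33 CPM) and a ratio whose interval included 0. In vein-like cells it had 12 UMIs (3.69 CPM, 1.91 to 6.45) in control and 39 (11.7 CPM, 8.34 to 16) in B16-F10, a log2 ratio of 1.67 (0.71 to 2.74). Its levels were higher in a mixed cluster that carried platelet genes, 68.2 CPM in control and 76.7 CPM in B16-F10. Summed platelet markers in vein-like cells stood at 23.7 and 31.3 CPM, and their part in the Gchfr ratio was not tested.

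Counted together, 2 of the 9 members passed 1.5-fold in gCap-like cells, Ddah1 higher and Agmo lower, against 16.8% of all 13193 genes measured there, 7.49% higher and 9.35% lower. The members' median log2 ratio was 0.26 and that of all genes −0.04. In aCap-like cells 4 of 9 passed (Gch1, Nos3 and Ddah2 higher, Agmo lower) against 14.7% of genes, 6.53% higher and 8.15% lower. Of the 6 members with 50 UMIs in artery-like cells, 3 were higher past 1.5-fold (Qdpr, Ddah1 and Ddah2), where 9.95% of genes were, with 8.57% lower and 18.5% either way. In vein-like cells 8 members had 50 UMIs and 3 were higher (Gchfr, Pts and Ddah1), where 5.43% of genes were, with 6.14% lower and 11.6% either way. Ddah2 alone had 50 UMIs in LEC-like cells, and 0 members were called there, against 16.9% of genes, 8.34% higher and 8.54% lower. Members were chosen with earlier results known, so these counts are a description.

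Pim3, Bcl3 and Inhbb are the study's markers of reactive capillaries. Thinned gCap-like cells were ordered by how many of these 3 genes had a UMI. In B16-F10, Gch1 stood at 45.7 CPM (39.6 to 52.3) in the 2267 cells with none, 64.0 CPM (55.2 to 73.9) in the 1461 with 1 and 76.7 CPM (61.6 to 94.4) in the 580 with 2 or 3. Ddah1 stood at 122, 150 and 161 CPM in the same cells. For both genes the interval of the cells with none lay below those of the other cells. Ddah2 had 345 CPM (328 to 362) in cells with none and 388 CPM (366 to 411) in cells with 1. Cells with 2 or 3 had 378 CPM (344 to 416), which overlapped both. Nos3 showed no such order, with 25.1, 33.5 and 26.7 CPM. The B16-F10 cells with none of the 3 markers were still above the control cells with none for Ddah1 (122 against 86.7 CPM) and Ddah2 (345 against 258 CPM), and the intervals for Gch1 overlapped (45.7 against 39.2 CPM). Agmo had 1, 1 and 0 UMIs in these B16-F10 cells and 53, 10 and 0 in control cells. In control cells with none and with 1 of the markers, Gch1 (39.2 and 30.2 CPM) and Ddah1 (86.7 and 80.1 CPM) had overlapping intervals.

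**Figure D4:**
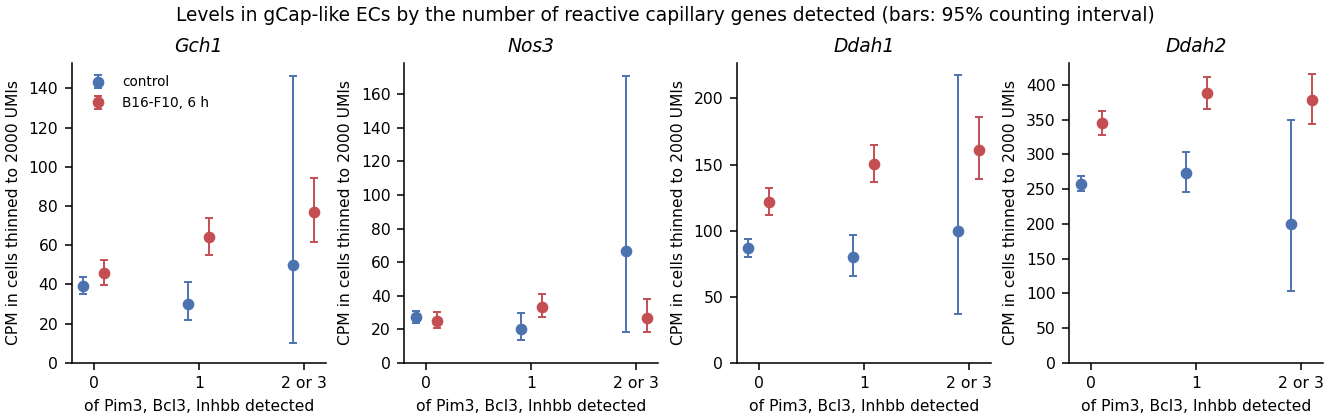
Levels of 4 genes in gCap-like cells thinned to 2000 UMIs (y axis, CPM) by the number of Pim3, Bcl3 and Inhbb detected (x axis), for control (blue) and B16-F10 (red), with 95% counting intervals. Among B16-F10 cells, Gch1 and Ddah1 are lowest in those with none of the 3, and the control points at 2 or 3 rest on 30 cells.

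Detection of Gch1 in a cell was compared with detection of Nos3, Ddah1 and Ddah2 in the same cell. Of thinned control gCap-like cells, 7.53% (4.93 to 10.9) of those with Gch1 and 4.84% (4.22 to 5.52) of those without it had a Nos3 UMI, and in B16-F10 5.88% (3.88 to 8.5) and 4.97% (4.30 to 5.70). Ddah1 was found in 24.2% (20.3 to 28.5) of B16-F10 cells with Gch1 and in 22.2% (20.9 to 23.6) without. The intervals overlapped in each pair, also for Ddah2. Overlap does not show that the shares were equal, and the differences were not tested.

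Of the 40 other pathway genes listed, 30 had 50 UMIs in gCap-like cells, and 4 were higher and 2 lower past 1.5-fold, where 7.49% and 9.35% of all genes were. Their median log2 ratio was 0.08. None of the 4 measured genes of cofactor recycling and synthesis passed there, while Pcbd2 did in LEC-like cells (17 and 39 UMIs, 1.30, 0.44 to 2.21). In gCap-like cells Akr1b3 (67.6 and 79.7 CPM) and Cbr1 (34.5 and 34.1 CPM) stood highest among the 4. Of the other cofactor users, Nos2, the inducible synthase, had 69 and 172 UMIs (1.92 and 4.46 CPM, log2 ratio 1.22, 0.81 to 1.64), and 17 and 76 UMIs in aCap-like cells (2.43, 1.65 to 3.28). Th, Tph1, Tph2 and Nos1 had 0 to 3 UMIs per library in gCap-like cells.

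None of the 9 partners of Nos3 passed the line in gCap-like cells, while Hsp90aa1 did in artery-like cells (0.69, 0.42 to 0.97) and Klf2 in LEC-like cells (0.59, 0.29 to 0.90). Cav1, which holds the synthase inactive in caveolae, stood at 1581 and 1267 CPM (−0.32, −0.34 to −0.30), and Hsp90ab1, a chaperone, at 986 and 1161 CPM (0.24, 0.22 to 0.26). The arginine importer Slc7a1 was higher, 8.13 and 14.9 CPM (0.87, 0.67 to 1.08), while Ass1 (−0.09) and Asl (0.01), which rebuild arginine from citrulline, had intervals that included 0. Prmt1, which methylates arginine residues, was at 57.7 and 78.8 CPM (0.45), and it passed the line in artery-like cells (0.59, 0.13 to 1.06). Of the 4 genes downstream of nitric oxide, both subunits of its receptor were higher in gCap-like cells, Gucy1a1 at 11.5 and 22.5 CPM (0.97, 0.80 to 1.14) and Gucy1b1 at 10.4 and 15.8 CPM (0.60, 0.41 to 0.79). In aCap-like cells Gucy1b1 was lower (−0.50, −0.78 to −0.23) and Gucy1a1 stood at 0.07 (−0.40 to 0.53), and in LEC-like cells Gucy1b1 was lower (−2.07, −3.11 to −1.15). Prkg1, the cGMP-dependent kinase, was lower, 324 and 149 CPM (−1.12, −1.17 to −1.08). Prkg1 was lower past 1.5-fold in aCap-like (−0.73), artery-like (−0.81) and vein-like cells (−1.30) as well. Longer genes had lower median ratios in gCap-like and aCap-like cells, and the part of gene length in the Prkg1 ratios was not tested.

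Of the 8 genes that make or handle ether lipids, the substrate side of AGMO, Far2 alone passed in gCap-like cells, with 59 and 33 UMIs (−0.94, −1.6 to −0.30). Dhrs7b in artery-like cells (−0.67) and Far1 in LEC-like cells (0.60) also lay past 1.5-fold, with intervals that included 0. In gCap-like cells Far1, which makes the fatty alcohol for ether bonds, stood at 72.9 and 70.6 CPM (−0.05, −0.13 to 0.03), and Agps, which forms the bond, at 56.7 and 58.7 CPM (0.05, −0.04 to 0.14). Selenoi (−0.42, −0.55 to −0.30) and Aldh3a2 (−0.39, −0.52 to −0.26), named after their values were seen, were lower beyond their intervals and under the 1.5-fold line.

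**Figure D5:**
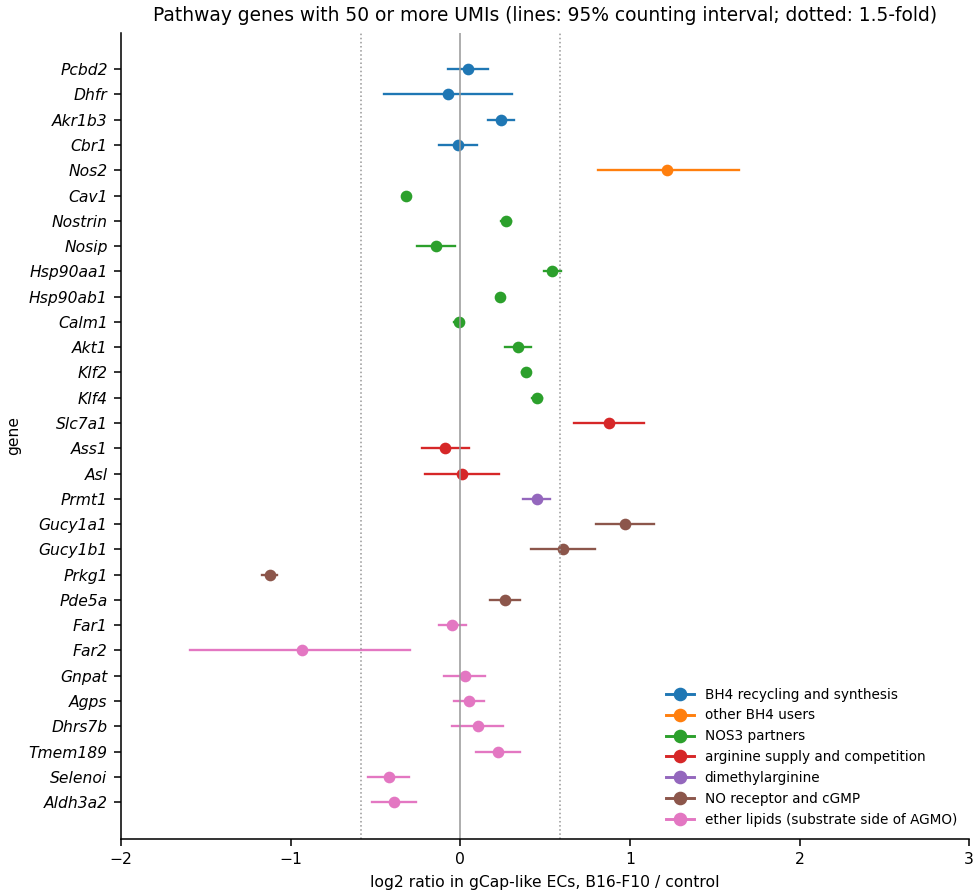
Log2 ratios of B16-F10 over control in gCap-like cells (x axis) for the 30 listed pathway genes with 50 or more UMIs, coloured by group, with 95% counting intervals and dotted lines at 1.5-fold. Nos2, Slc7a1, Gucy1a1 and Gucy1b1 lie right of the upper line, and Prkg1 and Far2 left of the lower one.

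By the Pearson r of log2(CPM + 1) over the 10 sums of classes and libraries, the genes most like Agmo among 13192 were Ppp1r12b (0.93), Zfp273 (0.92), 2900089D17Rik (0.92), Ubr2 (0.92) and Zfp493 (0.91). Their gCap-like log2 ratios were from −0.73 to −0.25, well short of the −3.99 of Agmo. Those most like Gch1 were Entpd1 (0.99), an ectonucleotidase that degrades extracellular ATP, D16Ertd472e (0.98), Tinagl1 (0.98), Gm50130 (0.98) and Rlim (0.97). Entpd1 had 10811 and 17024 UMIs in gCap-like cells, a log2 ratio of 0.56.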

How the data were processed

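Droplet single-cell RNA sequencing libraries of 1 control and 1 B16-F10 lung EC sample were used. The authors deposited raw UMI counts per gene and barcode, unfiltered, for mm10. The submitters' processing notes name Cell Ranger 7.2.0 and Seurat 4.4.0, and the study's methods name another Cell Ranger version. Whether intronic reads were counted is not given in the sources used here, which bears on long genes such as Agmo. Depth was 85794655 and 104978816 UMIs.

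Cells were kept if they had between 1000 and 5000 genes and mitochondrial UMIs below 20%. Doublets were marked with Scrublet at 0.8% per 1000 cells, leaving 7830 control and 7767 B16-F10 cells. These were clustered with scanpy 1.11.5 and leidenalg 0.10.2 (3000 variable genes asked, 30 components, 10 neighbours per library, resolution 0.8). The members, the pathway genes and a list of 95 response genes were left out of the clustering. Scipy 1.17.1 and scikit-learn 1.9.0 were used. A cluster was named when it passed the marker thresholds, which were chosen with a first clustering already seen, so names and sizes may differ from the study's.

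UMIs were summed per vessel class and library. Levels carry exact Poisson intervals, ratios exact conditional binomial intervals and shares Clopper-Pearson intervals, all 95% and for counting error only, as are limits from a count of 0 (3 counts). A gene entered a count with 50 UMIs over both sums and was called past 1.5-fold. With 1 library per group no test was made and no p-value was computed. The ratio and interval code was tested on simulated data. All 9 members were described, and up to 2 pathway genes per group by level, plus those past 1.5-fold, were named. One listed pathway gene is not reported here. Members and lists were chosen with earlier results of these data known. Coordinates are from GENCODE M21 (GRCm38). Alternatives changed the cell limits, doublet removal, clustering, class rule, thinning, scaling, free RNA, fold and UMI minimum.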

Additional observations from a re-analysis of the deposited data

Results flagged for a closer look

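Nos3 had log2 ratios of B16-F10 over control in opposite directions between vessel types, each with a counting interval that left out 0: 0.16 in gCap-like and 1.18 in aCap-like cells, and −0.42 in artery-like and −0.46 in vein-like cells. The gCap-like ratio was −0.15 in cells with no UMI of other cell types' markers, and the artery-like one 0.03 with classes set from marker UMIs and −0.05 with no upper limit of genes per cell. Shares of cells with a Nos3 UMI overlapped between the libraries in artery-like and in vein-like cells. With 1 library per group the difference was not tested.

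Barcodes outside the gene limits entered only the alternatives that widened those limits. Some members stood above the control level in them. Among barcodes with over 5000 genes (348 in control, 645 in B16-F10), Gch1 stood at 41.2 CPM in B16-F10 and 26.9 CPM in control. Nos3 stood at 24.6 CPM in these B16-F10 barcodes and 18.4 CPM in control ones. Ddah1 stood at 134 CPM against 108 CPM, and Ddah2 at 230.05 CPM against 181 CPM. Among barcodes with at least 300 and under 1000 genes (1750 and 2590), Ddah2 stood at 219.5 CPM in B16-F10 and 144 CPM in control. Agmo went the other way and was at 33.0 CPM in control and 11.5 CPM in B16-F10 with over 5000 genes and at 18.8 and 3.27 CPM with under 1000, and Nos3 with under 1000 genes was at 20.98 and 10.9 CPM.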

How the results depend on the processing

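No paired analysis was possible because there is a single library on each side and no test was made, and no replicate could be left out. The Agmo log2 ratio in gCap-like cells was negative under all 16 alternatives. It was −2.95 in cells with no UMI of other cell types' markers (64 UMIs in 989 control and 4 in 437 B16-F10 cells) and −4.86 after thinning to 2000 UMIs (63 and 2 UMIs), and the cause was not tested. The number of members past the fold there, 2, was 1 with at least 500 genes per cell, at resolution 1.6, at 2-fold and without cluster 6 (an alternative chosen after the data were seen), 4 at a fold line laxer than 1.5 and 3 in cells with no UMI of other cell types' markers. The pathway median stayed between 0.04 and 0.18. Ddah2 in artery-like cells was −0.15 with classes from marker UMIs. Over 32 member results, 383 of 393 alternative values kept their sign, and the other 10 fell in 7 results. Of the 393 values, 40 lay outside the counting interval of the main result. Depth limits Agmo outside capillaries and most members in LEC-like cells, which had under 50 UMIs.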

Other observations

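Agmo was also counted outside ECs. In cluster 18, led by Ccr2, Gm2682 and Ccl5, it had 3 UMIs in 14 control cells (17.2 CPM) and 50 UMIs in 61 B16-F10 cells (64.5 CPM). The 50 UMIs came from 5 cells with 11, 3, 23, 3 and 10 UMIs, which held 2 to 4 of 8 macrophage and monocyte markers. In a mixed cluster led by the fibroblast genes Col1a2 and Col3a1, Agmo stood at 15.1 CPM in control and 3.29 CPM in B16-F10. A mixed cluster led by the epithelial genes Scgb1a1 and Sftpc had 9 UMIs in each library. None of the 77 melanoma-like cells had an Agmo UMI, which allows a share of cells with a UMI of up to 3.90%.

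Gchfr differed with the size of the barcode. Those with at least 300 and under 1000 genes held it at 168 CPM in control and 162 CPM in B16-F10, while those with over 5000 genes held it at 3.32 and 3.98 CPM.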
